A study of Mus musculus with 9 samples.

Results

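The cytosolic ribosomal protein genes were followed across 9 RNA sequencing libraries of male mouse embryonic stem (ES) cells, pluripotent cells of the early embryo, kept here in serum with LIF, a cytokine that holds them undifferentiated, on a gelatin coat. The genes were taken by name: 243 gene symbols began with Rpl or Rps and a digit, and leaving out 152 pseudogene names with -ps and 10 Rps6k kinases left 81. Of these, 79 had a summed count of at least 900 over the 9 libraries and are described here, out of 33924 genes in the table. The lowest inside that limit were Rpl10l (1703 counts) and Rpl23a (2353 counts), and the highest outside it were Rpl39l (891 counts) and Rpl3l (271 counts). All 79 passed the filter on low counts and were tested among 14772 genes.

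The libraries formed 3 groups of 3. The first carried the label MLL4 knockdown and a title of JM8A followed by a number; MLL4 is an H3K4 methyltransferase of enhancers encoded by Kmt2d. The second was a UTX knockout, titled A6, which lacks an H3K27 demethylase encoded by Kdm6a, and the third was wild type JM8A. No group was given a treatment, and the labels explain neither A6 nor that number, so a difference of line or clone and the perturbation cannot be told apart. The study concerns how UTX and MLL4 act together with the acetyltransferase p300, and each comparison asks how transcript levels differ once one of them is perturbed.

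A cytosolic ribosome joins a small subunit, which reads the mRNA, and a large subunit, which forms the peptide bond, and each protein of either subunit is encoded in mouse mostly by a single active gene. Their mRNAs are short and abundant and usually start with a run of C and T, the terminal oligopyrimidine (TOP) motif, through which the kinase mTOR and the binding protein Larp1 control their translation. ES cells divide fast and need a steady supply of ribosomes. By name, 46 of the 79 genes belong to the large subunit and 32 to the small subunit. The remaining gene is Rps19bp1, which encodes a nucleolar binding protein of Rps19 and no ribosomal protein. The naming rule leaves out others, among them Rplp0, Rplp1, Rplp2, Rpsa and Fau, which also encode cytosolic ribosomal proteins and are given apart.

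Library totals lay between 18570746 and 23874816 counts, 0 of 10 ES cell markers was at 0 in any library, and the summed level of 10 fibroblast markers was 10.2 to 12.9 CPM (counts scaled to a common library total) in the labelled MLL4 knockdown, 12.2 to 12.7 CPM in the UTX knockout and 15.2 to 26.2 CPM in wild type. The ES cell markers summed to 6704 to 7310 CPM in the labelled MLL4 knockdown and 6636 to 7292 CPM in the UTX knockout. Wild type had 5379 to 6300 CPM, so both perturbed groups lay above it in this sum. Single ES cell markers went both ways by edgeR against wild type. In the labelled MLL4 knockdown 4 rose and 2 fell, and in the UTX knockout 1 rose and 1 fell. Of the fibroblast markers 5 were tested. Of these, 1 rose and 4 fell in the labelled MLL4 knockdown, and 1 rose and 2 fell in the UTX knockout. Lum was at 0 in all 9 libraries. Any part of these marker differences in the results below was not tested. Kdm6a stood at 12.8 to 19.4 CPM in the UTX knockout, against 57.1 to 90.7 CPM in wild type. Kmt2d, listed as Mll2, stood at 71.0 to 73.4 CPM in the labelled MLL4 knockdown, against 43.5 to 119 CPM in wild type (log2 fold change -0.20, adjusted p = 0.624 by edgeR), so the label is not borne out by its own target, and every direction given for these libraries rests on the label alone. Replicate 2 of each group was sequenced in lane 1, and replicates 1 and 3 in lane 2.

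The bases around the annotated start of these genes were searched for runs of C and T. Of the 79 genes, 59 matched an entry in RefSeq's promoter table (GRCm38.p6). In the 30 bases from 15 before to 15 after the annotated start, a run of at least 6 C or T on the transcribed strand was found in 36 of them (61.0%), against 32.7% of all 27025 genes in that table, and a run of at least 8 in 26 (44.1%), against 13.9%. The letters CCGGAAG, searched on both strands of the 300-base promoter, were found in 22 (37.3%), against 9.93% of all genes, and AAGATGG in 10 (16.9%), against 7.28%. Both motifs were searched as exact matches, and some genes hold both. The windows below are those of genes the comparisons turn on, 5′ to 3′ on the transcribed strand, with the longest run of C or T in capitals.
Rps6, chr4:86857353-86857382, minus strand: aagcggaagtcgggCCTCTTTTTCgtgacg
Rpl13, chr8:123102335-123102364, plus strand: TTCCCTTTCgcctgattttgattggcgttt
Rps12, chr10:23787195-23787224, minus strand: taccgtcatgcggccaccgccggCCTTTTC
Rpl38, chr11:114668565-114668594, plus strand: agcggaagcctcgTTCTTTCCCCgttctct
Rpl4, chr9:64173372-64173401, plus strand: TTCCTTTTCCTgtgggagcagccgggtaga
Rpl22, chr4:152324421-152324450, plus strand: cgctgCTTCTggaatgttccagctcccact
Rpl15, chr14:18270972-18271001, minus strand: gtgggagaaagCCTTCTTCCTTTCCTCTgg
The run was 10 bases in Rps6 and Rpl38, 9 in Rpl13, 7 in Rps12, 11 in Rpl4 and 17 in Rpl15, and 5 in Rpl22, below the 6 counted as a run above. A run in this window need not lie in the transcript. Those marked in Rpl13, Rpl4 and Rpl22 end before the annotated start, and that in Rps12 begins after it, so they are not TOP motifs by that start.

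As a group the ribosomal protein genes took 5.14%, 4.94% and 4.96% of all counts in replicates 1 to 3 of the labelled MLL4 knockdown, and 5.82%, 6.12% and 5.94% in the UTX knockout. The wild type libraries held 6.42%, 7.97% and 5.28%. The shares of the labelled MLL4 knockdown lay below every other library. The shares of the UTX knockout lay between wild type replicate 3 and wild type replicate 1, so these groups overlapped. Group means were 5.01% ± 0.110 in the labelled MLL4 knockdown, 5.96% ± 0.148 in the UTX knockout and 6.56% ± 1.35 in wild type (SD, n = 3 each). The mean over the 9 libraries was between 5.58% without wild type replicate 2 and 5.96% without replicate 2 of the labelled MLL4 knockdown. In bulk RNA, fewer cells of a type and less RNA per cell cannot be told apart.

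**Figure D1:**
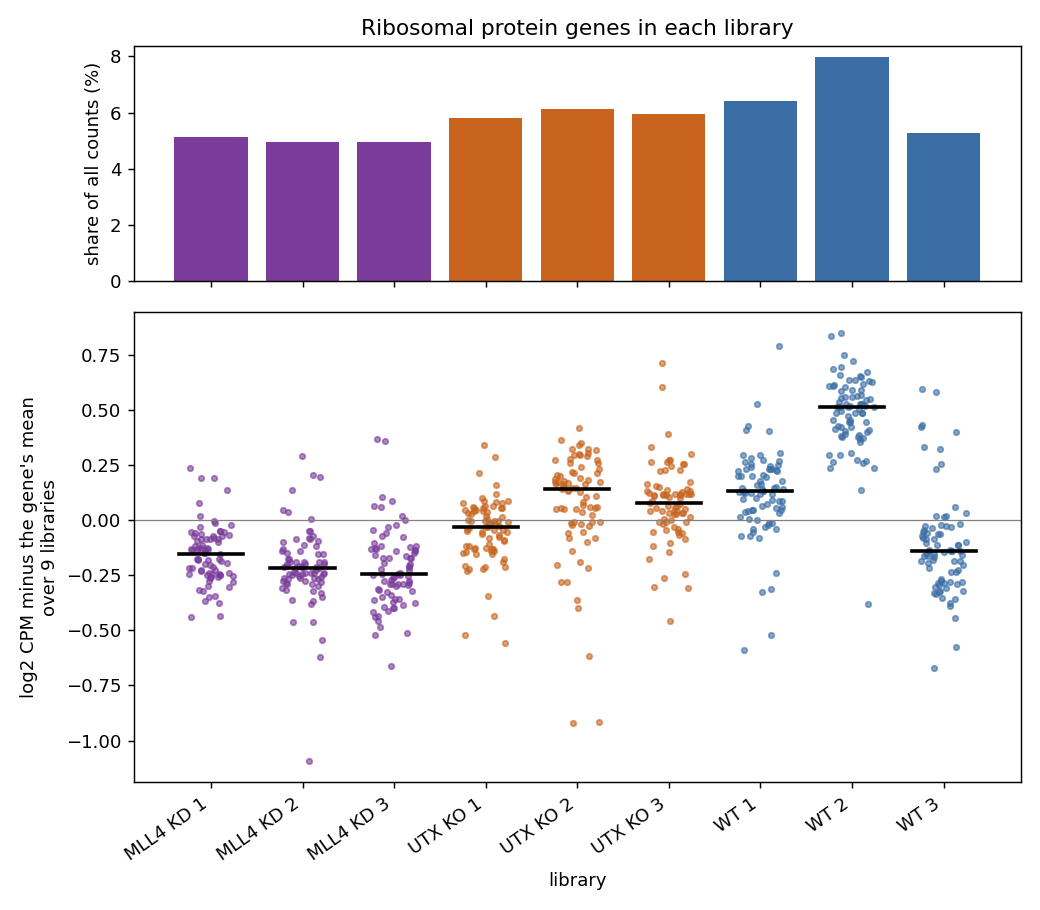
Top: counts in the 79 ribosomal protein genes as a percent of each library's total. Bottom: log2 CPM of each gene (1 point per gene) minus its mean over the 9 libraries, with the median as a black line. Wild type replicate 2 stands highest in both panels, with a share of 7.97%, and the 3 libraries labelled MLL4 knockdown stand lowest in share.

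Wild type replicate 2 stood apart in these genes: 75 of the 79 had their highest level there, and their median stood 0.51 above their own 9-library mean on the log2 scale. The lowest level lay in a library of the labelled MLL4 knockdown for 62 genes, in the UTX knockout for 7 and in wild type for 10. The same wild type library also held more of other short transcripts. Across all genes tested, the rank correlation of a library's deviation with transcript length was -0.48 in wild type replicate 2, against -0.007 to 0.15 in the other 8 libraries. The ribosomal protein genes have a median transcript length of 774 nucleotides (nt), against 2743 nt for all genes tested. The 1242 other genes with transcripts under 1000 nt stood 0.29 higher there by their median, the mitochondrial ribosomal protein genes 0.31, the respiratory chain genes 0.31 and the proteasome core genes 0.36. The part of this library's length dependence in the results below was not tested as a cause, and the count of called ribosomal protein genes in each comparison is given without the library as well.

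Levels of the members spanned a wide range. Per kilobase of transcript, Rps12, a small-subunit protein, had the highest mean over the 9 libraries at 2660 CPM per kb, followed by Rpl4 (2314 CPM per kb) and Rpl8 (1975 CPM per kb) of the large subunit. The lowest were Rpl10l at 8.60 CPM per kb, a paralog of Rpl10 known from testis, Rps19bp1 at 21.96 CPM per kb and Rpl23a at 22.1 CPM per kb. Rpl23a encodes a core large-subunit protein, and whether reads shared with its many near-identical copies were counted is not given in the sources used here. Names with -ps held 8400 counts, 0.074% of the 11353524 counts of the 79 genes. Rps20 and Rps15a carry long annotated transcripts (3706 and 5130 nt), which lowers their level per kilobase.

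The spread between replicates differed between groups. The median coefficient of variation over the 79 genes was 7.79% in the labelled MLL4 knockdown, 10.5% in the UTX knockout and 23.7% in wild type. Rpl10, which completes the large subunit late in its assembly, had a coefficient of 0.368% in the labelled MLL4 knockdown, with 700.3, 699.9 and 696 CPM. In wild type the smallest was that of Rps6 (7.54%) and the largest that of Rps21 (41.9%), whose level was 345, 653 and 323 CPM. Rpl36 varied most in the UTX knockout, at 133, 104 and 299 CPM (58.9%), with replicate 3 far above the others. Rps21 and Rpl36 were chosen after their values were seen.

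In the UTX knockout against wild type, 3 of the 79 genes fell and 0 rose. Among them were Rpl13 of the large subunit and Rps6 of the small subunit, the protein phosphorylated by S6 kinase downstream of mTOR. Of all tested genes, 8.92% fell and 6.55% rose in this comparison, 15.5% in either direction. The fitted fold change was below 0 for 70 of 79 members, against 50.8% of all genes, with a median of -0.12, against -0.007 for all genes tested. At an unadjusted p under 0.05, 6 members fell and 0 rose, with 16.7% of all genes falling, and DESeq2 called 3 falls and 0 rises, with 10.8% of all genes falling.

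Rps6 had 729, 795 and 921 CPM in the UTX knockout, against 1145, 1302 and 1147 CPM in wild type. Every knockout library lay below every wild type library, and wild type replicate 2 stood out less for this gene than for most. It fell by 0.56 on the log2 scale (SE 0.133, adjusted p = 0.0177 by edgeR's quasi-likelihood test with Benjamini-Hochberg adjustment). Rpl13 had 415, 372 and 578 CPM in the UTX knockout, against 588, 752 and 631 CPM in wild type. Its highest knockout library lay just under the lowest wild type library, and the fit gave -0.53 on the log2 scale (SE 0.159, adjusted p = 0.0440 by edgeR). In 3 members, Rps6 and Rpl13 among them, every knockout library lay below every wild type library, against 16% of all genes lower without overlap.

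Rps6 lies on chromosome 4 and Rpl13 on chromosome 8 (RefSeq, GRCm38.p6), where neighbouring genes were lower too. The median log2 fold change of all 761 tested genes of chromosome 8 was -0.44 for the UTX knockout, with 36.1% falling, and -0.42 for the labelled MLL4 knockdown, with 41.1% falling, each set against wild type. On chromosome 4 (947 genes tested) the median was -0.15 for the UTX knockout, with 19.0% falling, and -0.21 for the labelled MLL4 knockdown, with 27.3% falling. These comparisons share the wild type libraries. Among the 20 tested neighbours on either side of Rpl13, the median was -0.61 in the UTX knockout, with 18 of 40 falling. Around Rps6 it was -0.31 (12 of 40).

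Other members of chromosome 4 had other surroundings. Around Rpl11, whose protein binds Mdm2 together with Rpl5 and 5S rRNA, the neighbours' median was 0.08 in the UTX knockout. Around Rpl22, an RNA-binding large-subunit protein, it was 0.07, and around Rps20 0.21 (23 neighbours). None of these 3 passed the test in this comparison. These chromosomes were singled out after the called members were seen, so that 0 of the 72 members elsewhere were called by edgeR in the UTX knockout follows from that choice (0 by DESeq2, 3 at an unadjusted p under 0.05, 1 with the length trend removed). In the labelled MLL4 knockdown against wild type 8 of the 72 fell, while 15.8% of all genes tested fell. How much of the falls of Rps6 and Rpl13 follows their chromosomes was not tested.

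**Figure D2:**
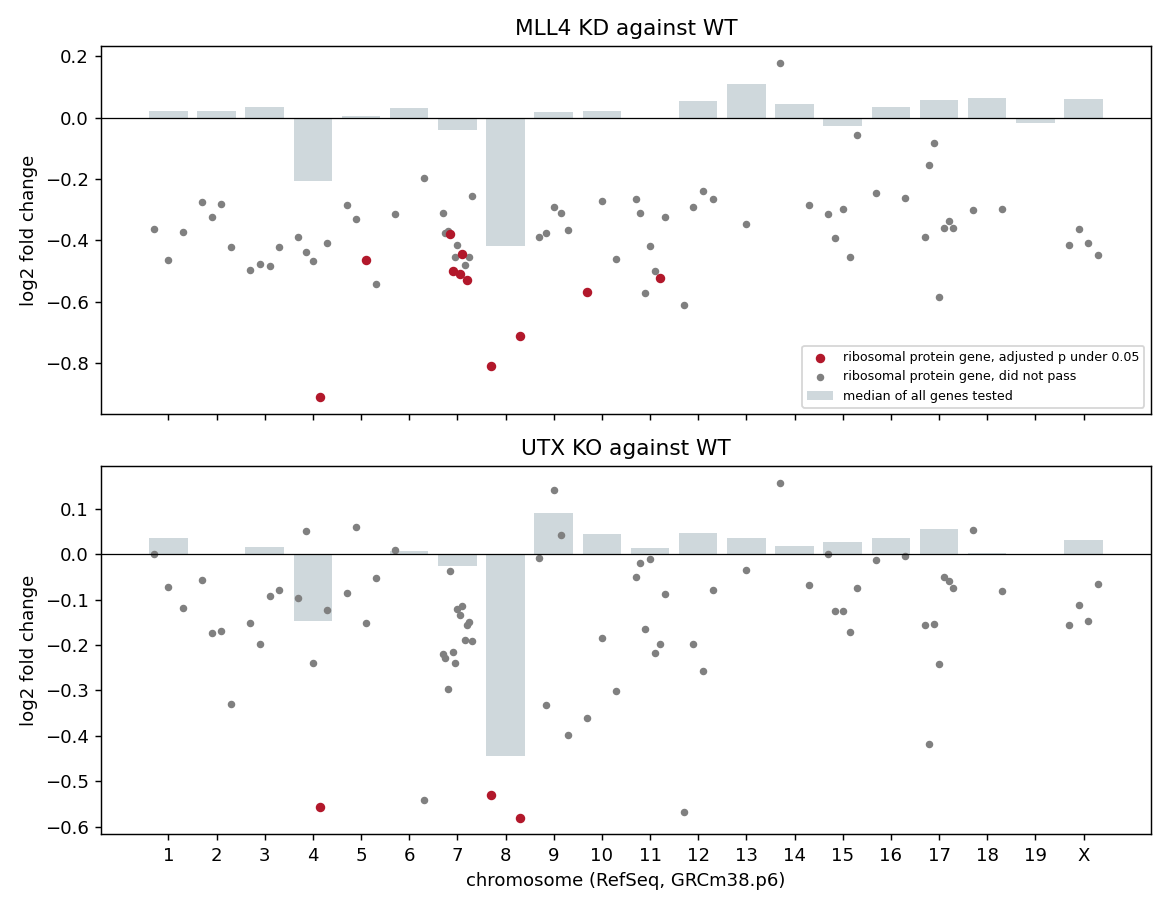
Log2 fold change by chromosome for the labelled MLL4 knockdown (top) and the UTX knockout (bottom), each against wild type. Bars give the median of all tested genes of a chromosome and points the ribosomal protein genes, red where the adjusted p was under 0.05. Chromosome 8 has the lowest bar in both panels (-0.42 and -0.44), and Rpl13, which lies there, is red in both.

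The fall of Rps6 in the UTX knockout was lost without UTX knockout replicate 2 and within lane 2 alone, where 0 members were called and 3.34% and 0.372% of all genes fell. With wild type replicate 2 left out, 2 members were called, Rps6 among them (8.05% of all genes fell), the median of the 79 genes turned to 0.07, and without wild type replicate 3 the count was 4 (6.87%). Rpl13 was called in 11 of 20 alternatives, and scaling without the ribosomal protein genes left 3 falls (9.29% of all genes).

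In the labelled MLL4 knockdown against wild type, 11 of the 79 genes fell and 0 rose. Among them were Rps6, Rps3, Rps12 and Rps16 of the small subunit and Rpl6, Rpl13, Rpl28 and Rpl38 of the large subunit. Of all tested genes, 15.8% fell and 10.8% rose, 26.6% in either direction, so the members' share of 11 in 79 was near the background. The fitted fold change lay below 0 for 78 of 79 members, against 51.6% of all genes. The median was -0.38 (quartiles -0.46 and -0.30), against -0.018 for all genes tested (quartiles -0.41 and 0.26). Without wild type replicate 2 the members' median was -0.21, and within lane 2 alone it was -0.19. At an unadjusted p under 0.05, 46 members fell and 0 rose, with 21.6% of all genes falling, and DESeq2 called 19 falls and 0 rises, with 16.6% of all genes falling.

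Rps6 had 626, 553 and 733 CPM in the labelled MLL4 knockdown, against 1145, 1302 and 1147 CPM in wild type, with no overlap. Its log2 fold change of -0.91 (SE 0.133, 95% interval -1.20 to -0.62, adjusted p = 0.000732 by edgeR) was the largest fall among the members. Rpl13 had 387, 368 and 369 CPM in the labelled MLL4 knockdown, against 588, 752 and 631 CPM in wild type (log2 fold change -0.81, SE 0.160, adjusted p = 0.00390 by edgeR). The knockdown libraries lay close together and below all wild type libraries. Around Rps6 the neighbours' median was -0.27 in this comparison, and around Rpl13 -0.49. Rps6 and Rpl13 were called under every one of the 20 alternatives run.

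The other falls were smaller. Rps12, which in Drosophila takes part in competition between cells, had 1102, 1073 and 1077 CPM in the labelled MLL4 knockdown, against 1515, 2038 and 1267 CPM in wild type (log2 fold change -0.57, SE 0.152, adjusted p = 0.0183 by edgeR). Rps3, at the mRNA entry of the small subunit, had 1472, 1433 and 1381 CPM in the labelled MLL4 knockdown, against 1587 to 2522 CPM in wild type (-0.53, adjusted p = 0.0269 by edgeR). Rpl38, whose loss in mice lowers the translation of some Hox mRNAs, had 127, 127 and 125 CPM in the labelled MLL4 knockdown, against 178, 237 and 129.97 CPM in wild type (-0.52, adjusted p = 0.0463 by edgeR). For all 3 the groups were apart, with wild type replicate 3 nearest to the knockdown libraries. Rps16, Rpl6 and Rpl28, named after their values were seen because the count takes them in, had log2 fold changes of -0.51, -0.46 and -0.38.

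Several members with a known special role stood lower without passing the test. Rps19, mutated in Diamond-Blackfan anaemia, had 492, 428 and 377 CPM in the labelled MLL4 knockdown, against 625, 787 and 399 CPM in wild type (log2 fold change -0.48, adjusted p = 0.101; 0.0450 with the replicate number as a block). Rpl11 had a log2 fold change of -0.39 (adjusted p = 0.0541; 0.0396 with the block), and its partner Rpl5 -0.33 (adjusted p = 0.158). X-linked Rps4x had -0.45 (adjusted p = 0.0610; 0.0274 with the block) and X-linked Rpl10 -0.42 (adjusted p = 0.0706; 0.0435 with the block), all by edgeR. In Rps19, Rpl5 and Rps4x, the lowest wild type library lay within the range of the knockdown libraries. Rpl10 and Rpl11 had their 3 knockdown libraries below every wild type library.

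The falls came in both small and large subunit genes: 6 of 32 and 5 of 46, against 15.8% of all genes, with medians of -0.42 and -0.37. With the length trend removed 4 of the 32 and 3 of the 46 fell, against 17.1% of all genes. In 28 members every library of the labelled MLL4 knockdown lay below every wild type library, against 22.4% of all genes. Rpl15, a large-subunit protein near the exit tunnel, was the only member with a fold change above 0, and it was singled out after its values were seen. It had 464, 432 and 349 CPM in the labelled MLL4 knockdown, against 379, 433 and 289 CPM in wild type (log2 fold change 0.18, SE 0.158, adjusted p = 0.434 by edgeR). Its groups overlapped.

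Counts in this comparison moved with the fit and with single libraries. With the replicate number as a block 35 members fell, against 19.5% of all genes, all 11 among them, and with each library's trend on transcript length removed 7 fell, against 17.1% of all genes, with a median of -0.20. Without wild type replicate 3 the count was 52 (14% of all genes fell), and without wild type replicate 2 it was 4, Rps6, Rpl13 and Rps12 among them (14.7%). It was 7 without UTX knockout replicate 2 or 3 (14.5% and 14.6%), 3 without replicate 1, 2 or 3 of the labelled MLL4 knockdown (12%, 9.77% and 10.3%) and 3 within lane 2 (6.19%).

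**Figure D3:**
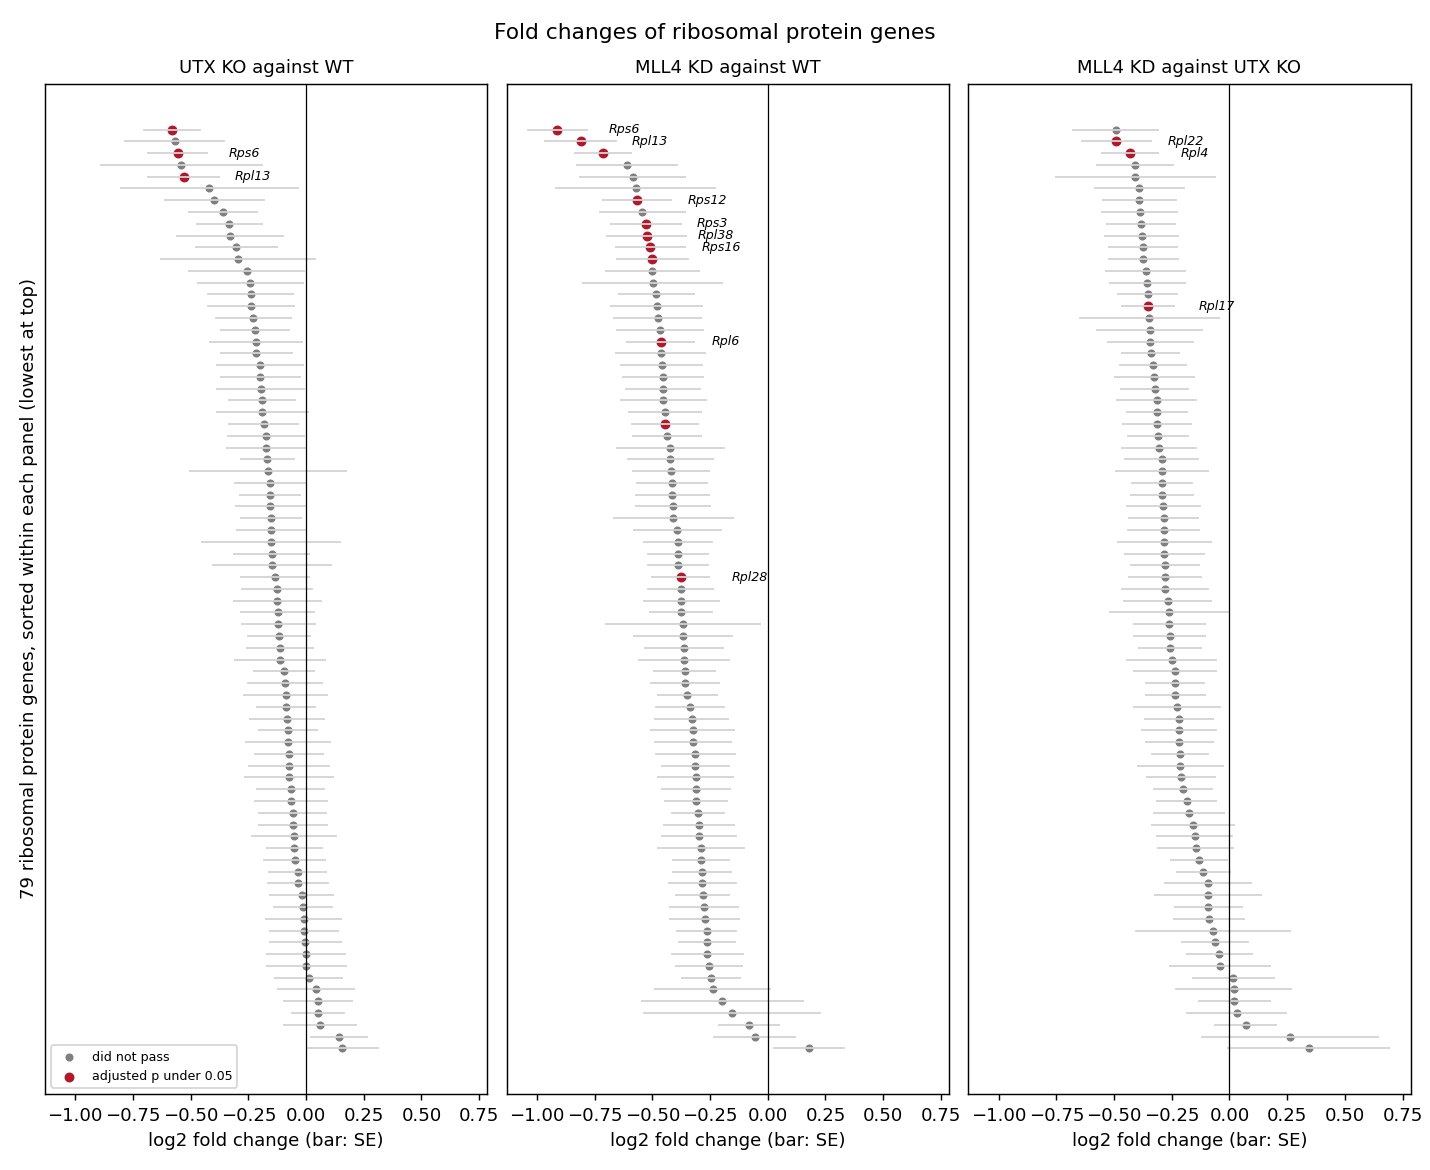
Log2 fold change of each ribosomal protein gene (bar: standard error) in the 3 comparisons, sorted within each panel with the lowest at the top; red marks an adjusted p under 0.05. The points of the labelled MLL4 knockdown against wild type lie left of 0 for 78 of 79 genes, while 3, 11 and 3 genes pass the test in the panels from left to right.

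Set directly against the UTX knockout, the labelled MLL4 knockdown had 3 members that fell and 0 that rose: Rpl4, Rpl22 and Rpl17, all of the large subunit. Of all tested genes, 16% fell and 13% rose, 28.9% in either direction. The median was -0.28, against -0.016 for all genes, and 72 of 79 members lay below 0, against 51.3% of all genes. At an unadjusted p under 0.05, 16 fell and 0 rose, with 21.9% of all genes falling, and DESeq2 called 6 falls and 0 rises, with 16.9% of all genes falling. In 41 members all 3 knockdown libraries lay below all 3 knockout libraries, against 26.9% of all genes, and in 0 members did they lie above.

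Rpl4 had 3206, 2830 and 2937 CPM in the labelled MLL4 knockdown, against 3776, 4341 and 3977 CPM in the UTX knockout (-0.43 on the log2 scale, SE 0.126, adjusted p = 0.0254 by edgeR). Wild type, at 3604, 4223 and 3143 CPM, overlapped the UTX knockout. Rpl22 had 489, 483 and 441 CPM in the labelled MLL4 knockdown, against 607, 747 and 630.0 CPM in the UTX knockout (-0.49, SE 0.152, adjusted p = 0.0323 by edgeR). Its paralog Rpl22l1, which Rpl22 is known to repress, had 142, 135 and 90.2 CPM in the labelled MLL4 knockdown, against 159.6, 191 and 115 CPM in the UTX knockout (-0.35, SE 0.304, adjusted p = 0.422 by edgeR), with overlapping groups. Rpl17 had 814, 726 and 847 CPM in the labelled MLL4 knockdown, against 913, 1056 and 1082 CPM in the UTX knockout (-0.35, SE 0.117, adjusted p = 0.0421 by edgeR). All 3 members had fold changes of 0.05 to 0.14 in the UTX knockout against wild type, none of which passed the test.

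Rps6 was lower in the labelled MLL4 knockdown than in the UTX knockout by -0.35 (adjusted p = 0.0650; 0.0444 with the replicate block, by edgeR), while Rpl13 (-0.28) did not pass under either fit. The replicate block called 14 falls, against 19.7% of all genes, and a fit of only these groups called 32, against 21.8%. The count was 22 without wild type replicate 2 (18.8% of all genes fell) and 12 without wild type replicate 3 (15.6%). It was 5, 0 and 0 without UTX knockout replicates 1, 2 and 3 (14.8%, 10.3% and 10.9%), 1, 0 and 1 without replicates 1, 2 and 3 of the labelled MLL4 knockdown (10.6%, 10.3% and 10.6%), and 0 within lane 2 (6.16%).

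**Figure D4:**
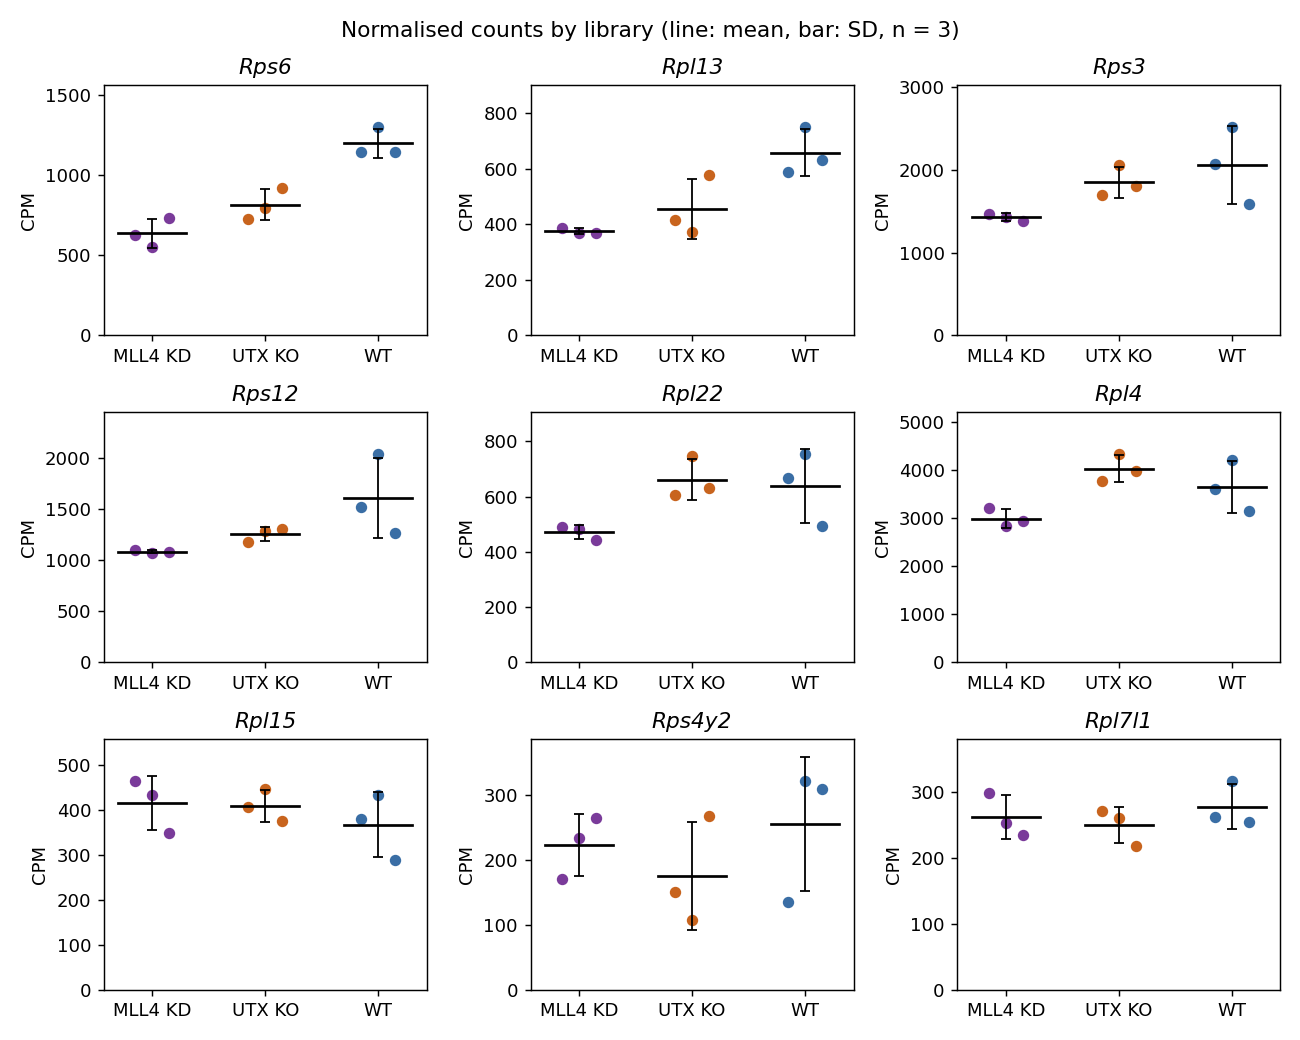
CPM of 9 ribosomal protein genes in each library (points), with the group mean (line) and SD (bar), n = 3 each. Rps6 and Rpl13 are lower in both perturbed groups with no overlap with wild type. Rpl4 and Rpl22 are lower in the labelled MLL4 knockdown than in the UTX knockout, and Rpl15, Rps4y2 and Rpl7l1 overlap between all groups.

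Paralogs and other names held by the rule made up 7 of the 79 genes, and 0 of them passed the test by edgeR in any comparison. At an unadjusted p under 0.05 there was 1 fall in each comparison with wild type, and DESeq2 called 1 fall in the labelled MLL4 knockdown, where the replicate block called 2, Rpl10l and Rpl22l1. Rps4y2, now named Rps4l, an autosomal copy of Rps4x, varied widely, with 170.3, 235 and 264 CPM in the labelled MLL4 knockdown, 151, 108 and 269 CPM in the UTX knockout and 136, 322 and 309 CPM in wild type. Its groups overlapped throughout. Rps27l, a known p53 target, had 159, 144 and 123 CPM in the labelled MLL4 knockdown, 138, 157 and 122 CPM in the UTX knockout and 180.0, 249.7 and 120.3 CPM in wild type, while its paralog Rps27 had 433 to 451, 487 to 664 and 483 to 769 CPM in the same groups. Rpl7l1, a preribosomal paralog of Rpl7, differed by -0.08 in the labelled MLL4 knockdown against wild type (95% interval -0.38 to 0.21), and Rpl7 by -0.37 (-0.68 to -0.07). Rps19bp1 differed by -0.06 (-0.45 to 0.34).

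Close copies that add to the same ribosome position stood at different levels. Rpl36a had 354.6 CPM ± 36.6 and Rpl36al 51.5 CPM ± 8.68 in the labelled MLL4 knockdown (SD, n = 3). Rpl10l stayed at 6.97 to 8.02 CPM in the labelled MLL4 knockdown and 6.08 to 10.5 CPM in the UTX knockout, against 9.87 to 13.3 CPM in wild type (adjusted p = 0.0610 and 0.101 against wild type by edgeR, and 0.0392 with the block for the labelled MLL4 knockdown). The highly abundant members Rpl3, Rpl8, Rpl13a and Rps27a, which carries a ubiquitin fused to its ribosomal protein, had fold changes of -0.31, -0.45, -0.31 and -0.32 in the labelled MLL4 knockdown against wild type, and none passed the test (Rpl8 had adjusted p = 0.0408 with the block). Rpl39, Rps25, Rps28 and Rpl10a had -0.41, -0.31, -0.36 and -0.39, again without passing (Rpl10a had adjusted p = 0.0408 with the block).

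The rank correlation across the 79 genes between GC content and a gene's deviation from its own mean was -0.17, 0.19 and 0.29 in the labelled MLL4 knockdown, -0.31, -0.48 and 0.29 for the UTX knockout and -0.34, 0.20 and 0.32 in wild type, for replicates 1 to 3. Replicate 3 was positive in every group and replicate 1 negative in every group. Rpl36, with 60.8% GC, had 151, 240.1 and 251 CPM in the labelled MLL4 knockdown and 136, 316 and 263 CPM in wild type, lowest in replicate 1 of both, while in the UTX knockout, at 133, 104 and 299 CPM, replicate 2 was lowest. Across members, the fold change correlated with transcript length at 0.10 in the UTX knockout and 0.04 in the labelled MLL4 knockdown, each against wild type, and with GC content at -0.29 and 0.11 (Spearman's rho over 79 genes that share libraries).

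Of the 6 cytosolic ribosomal protein genes that the naming rule leaves out, 1 fell in the labelled MLL4 knockdown against wild type by edgeR, where 15.8% of all genes fell. There 2 fell by DESeq2 and 3 at an unadjusted p under 0.05. In the UTX knockout 0 were called by edgeR or DESeq2 (0 at an unadjusted p under 0.05). Rpsa, a small-subunit protein also known as the laminin receptor, had 1697, 1519 and 1659 CPM in the labelled MLL4 knockdown, against 2001, 2505 and 1836 CPM in wild type (log2 fold change -0.38, SE 0.128, adjusted p = 0.0474 by edgeR, 0.0501 with the block). Rplp0, the base of the stalk, had -0.38 as well (adjusted p = 0.0512, 0.0433 with the block). Rplp1, Rplp2 and Fau had -0.28, -0.32 and -0.38, with adjusted p from 0.189 to 0.441.

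Translation factors with TOP mRNAs are controlled together with the ribosomal proteins. Of 20, 0 rose and 0 fell in the UTX knockout by edgeR and by DESeq2 (1 each at an unadjusted p under 0.05). Medians were -0.06 in the UTX knockout and -0.19 in the labelled MLL4 knockdown, each against wild type. In the latter 19 of 20 lay below 0, against 51.6% of all genes. There 6 fell at an unadjusted p under 0.05, 4 by DESeq2 and 4 with the replicate block. By edgeR 3 fell, against 15.8% of all genes. The 3 were Eef1d (-0.48), Eif3l (-0.39) and Eef2, the translocase of elongation (-0.39, adjusted p = 0.0498 by edgeR). Eef1a1, the most abundant of them, had 9144 to 9681 CPM in the labelled MLL4 knockdown, 9512 to 12186 CPM in the UTX knockout and 9556 to 10443 CPM in wild type. Between the perturbed groups 2 fell, Pabpc1 (-0.46) and Btf3 (-0.38), where 16% of all genes fell.

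The 1242 other genes with transcripts under 1000 nt had medians of -0.07 in the UTX knockout and -0.18 in the labelled MLL4 knockdown, each against wild type, and -0.11 between the perturbed groups. The ribosomal protein genes had -0.12, -0.38 and -0.28. With the length trend of each library removed, the medians of the ribosomal protein genes were -0.05, -0.20 and -0.17. Those of the 1242 other short genes were then -0.003, 0.0002 and -0.0004. The 75 mitochondrial ribosomal protein genes tested, with a longer median transcript of 1223 nt, had -0.11, -0.05 and 0.09. With the length trend removed they had -0.05, 0.04 and 0.13. Of the 75, 3 fell in the UTX knockout (Mrpl20, Mrpl37 and Mrpl50, all on chromosome 4) and 2 in the labelled MLL4 knockdown, against 8.92% and 15.8% of all genes. Between the perturbed groups 6 rose and 2 fell, against 13% and 16% of all genes. With the replicate block 5 fell in the UTX knockout, and 1 rose and 3 fell in the labelled MLL4 knockdown.

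The 82 respiratory chain genes tested, with a median transcript of 760.5 nt, had medians of 0.004, -0.08 and -0.08 in the same order, with 1 rise and 3 falls, 1 rise and 6 falls, and 8 falls by edgeR. Of all genes, 6.55%, 10.8% and 13% rose and 8.92%, 15.8% and 16% fell by edgeR. With the length trend removed, the medians of the respiratory chain genes were 0.07, 0.07 and -1.0e-05. With the replicate block there were 3 rises and 6 falls of these genes in the UTX knockout and 2 rises and 9 falls in the labelled MLL4 knockdown. The 17 proteasome core genes had -0.09, -0.11 and 0.03. Psmb10, on chromosome 8, fell in the UTX knockout, 0 of the 17 changed in the labelled MLL4 knockdown (1 at an unadjusted p under 0.05, 1 by DESeq2 and 1 with the replicate block), and 1 rose and 1 fell between the perturbed groups.

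**Figure D5:**
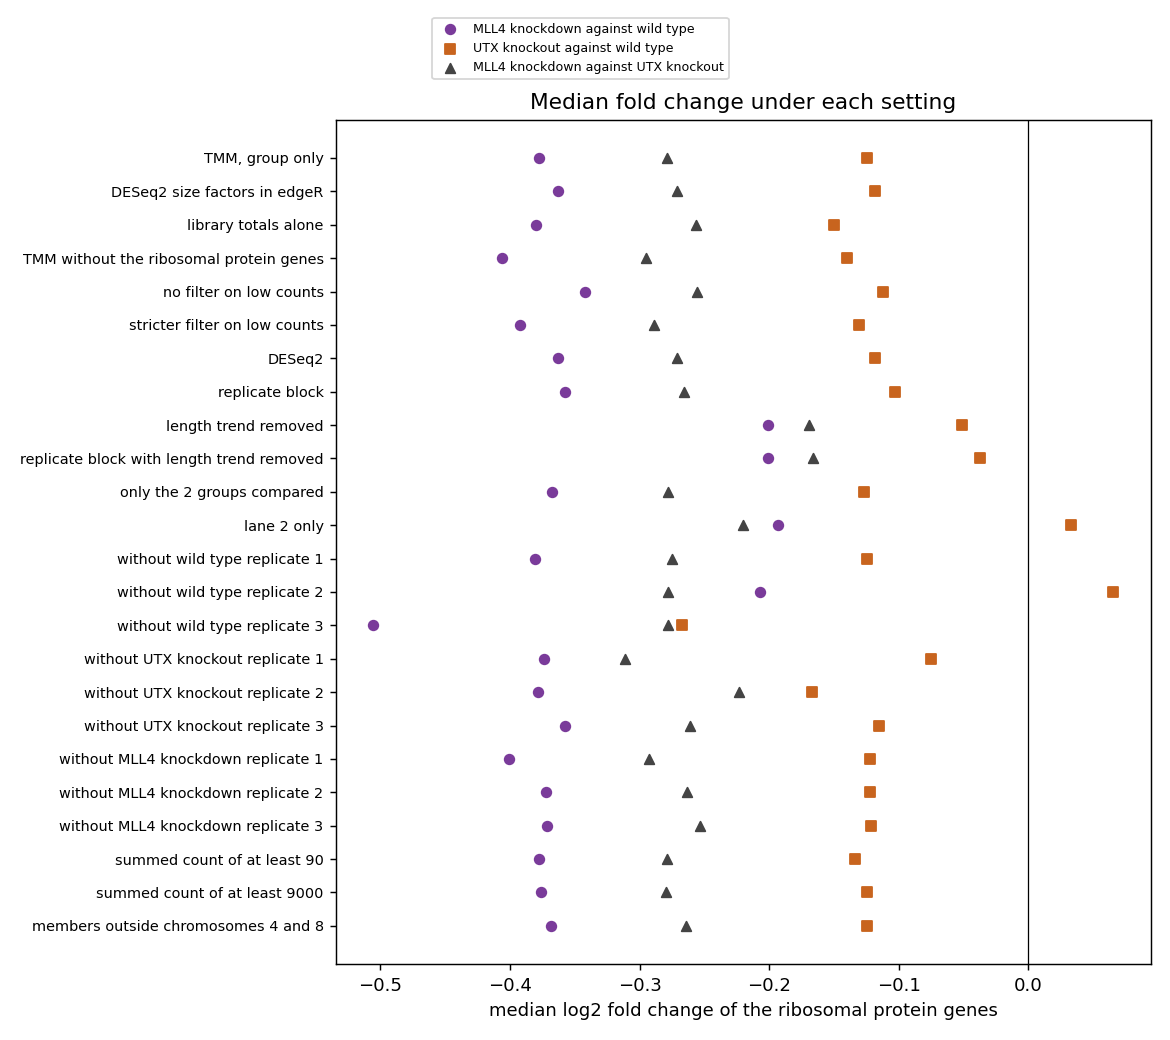
Median log2 fold change of the ribosomal protein genes under the fit with group only (top row) and each alternative, for the 3 comparisons. The circles of the labelled MLL4 knockdown stay below 0 in every row, while the squares of the UTX knockout cross 0 in lane 2 alone (0.03) and without wild type replicate 2 (0.07).

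Of 38 ribosome biogenesis genes, whose products build the subunits, 1 passed upward and 8 downward in the UTX knockout against wild type (median -0.27). There 6.55% of all genes rose and 8.92% fell. In the labelled MLL4 knockdown 2 passed each way (median 0.06), against 10.8% and 15.8% of all genes. Between the perturbed groups 12 rose and 0 fell in the labelled MLL4 knockdown, where 13% of all genes rose and 16% fell. The counts were 23 and 0 at an unadjusted p under 0.05, 18 and 0 by DESeq2, and 15 and 0 with the replicate block. The median was 0.30, while the ribosomal protein genes had -0.28. Riok1, a kinase of small-subunit maturation, had 47.3, 42.1 and 47.96 CPM in the labelled MLL4 knockdown, against 26.1, 25.9 and 28.4 CPM in the UTX knockout (log2 fold change 0.77, adjusted p = 0.000988 by edgeR). Rrp12, a factor of ribosome export, had 122, 127 and 112 CPM in the labelled MLL4 knockdown, against 93.3, 77.7 and 75.5 CPM in the UTX knockout (0.55, adjusted p = 0.00416 by edgeR). Both had groups that did not overlap. In the UTX knockout against wild type, Nip7 on chromosome 8 and Nol6 on chromosome 4 fell most clearly (-0.85 and -0.79).

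RNA polymerase I genes, which transcribe ribosomal RNA, gave 1 rise and 4 falls among 14 in the UTX knockout, 2 rises and 1 fall in the labelled MLL4 knockdown, and 4 rises and 0 falls between them (4 rises and 0 falls by DESeq2 too, and at an unadjusted p under 0.05). Polr1b, its second-largest subunit, had 166, 160.4 and 148 CPM in the labelled MLL4 knockdown, against 109, 88.7 and 76.2 CPM in the UTX knockout (log2 fold change 0.80, adjusted p = 0.00153 by edgeR). Of 14 chaperones and importers of ribosomal proteins, 1 fell in the UTX knockout (3 with the replicate block), and 1 rose and 1 fell both in the labelled MLL4 knockdown against wild type and between the perturbed groups (3 rises and 1 fall with the block). Of all genes tested, 6.55%, 10.8% and 13% rose and 8.92%, 15.8% and 16% fell in these comparisons, in that order. Heatr3, an import factor of Rpl5 encoded on chromosome 8, had 61.4, 40.6 and 34.5 CPM in the UTX knockout, against 102, 113 and 98.8 CPM in wild type (-1.20, adjusted p = 0.00268 by edgeR).

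Among 21 genes that control TOP mRNAs or ribosomal gene transcription, 0 rose and 2 fell in the UTX knockout by edgeR, against 6.55% and 8.92% of all genes. With the replicate block 1 rose and 4 fell, DESeq2 called 1 rise and 3 falls, and 1 rose at an unadjusted p under 0.05. The 2 falls by edgeR were Myc, a transcription factor known to activate ribosome genes, and Eif4ebp1, a translation repressor that mTOR inactivates. Neither fall was set against the genes near it, as was done for Rps6 and Rpl13. Myc had 10.6, 5.19 and 8.40 CPM in the UTX knockout, against 12.3, 25.8 and 30.4 CPM in wild type, with no overlap (-1.51 on the log2 scale, SE 0.329, adjusted p = 0.0121 by edgeR). In the labelled MLL4 knockdown Myc had 35.4, 24.1 and 27.2 CPM, which overlapped wild type (0.34, adjusted p = 0.457 by edgeR). There 5 of the 21 rose and 1 fell, against 10.8% and 15.8% of all genes, with Tia1 (0.67) and Mtor itself (0.41, adjusted p = 0.0343 by edgeR) among the rises. Between the perturbed groups 7 rose and 1 fell, against 13% and 16% of all genes. Whether any of these genes bears on the ribosomal protein genes was not tested.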

How the data were processed

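RNA was sequenced from 9 libraries in 3 groups of 3, with TruSeq preparation named in the labels. The authors deposited raw read counts for each gene symbol in a single table. The submitters' processing notes list STAR 2.4, HTSeq 0.6.1, mm9 and hg19 without roles. Annotation, strand setting and the treatment of reads shared between copies were not given in these sources. From the deposited counts, edgeR 4.0.16 in R 4.3.3 was run on the 9 libraries together, group being the sole term (TMM factors, filterByExpr by group, quasi-likelihood test, two-sided, Benjamini-Hochberg adjustment over 14772 genes, threshold 0.05). CPM values use TMM factors, and log2 levels add 0.5. DESeq2 1.42.0, other scalings (limma 3.58.1 loaded with edgeR), other filters, a replicate block, removal of each library's trend on transcript length (loess, span 0.5), lane 2 alone and each library left out were the alternatives. Transcript lengths came from GENCODE for 98.1% of tested genes and all 79 members. Whether replicates are separate cultures is not stated, so p-values reflect only the spread among these libraries, which may be technical. The smallest p of an exact permutation of 3 against 3 libraries is 0.1. Same-numbered libraries deviated together (correlations of 0.139 to 0.481 over all genes, against -0.444 to 0.242 for unlike numbers, so the ranges overlap, and wild type replicate 2 correlated more with replicate 3 of both other groups than with their replicate 2). As every same-numbered pair was above 0.1, the numbers were taken to pair the libraries, a pairing that rests on the data. Differences between replicate numbers 1 and 3 and number 2 are also differences of lane. The fits were tested on simulated counts. Named genes were members with a fixed special role or close paralog, paralog names, those next to the count limit, the highest and lowest per kilobase, the largest called falls and the smallest p per comparison; the genes left out by the naming rule and up to 2 per direction came from other lists. Members, lists and rules were chosen with earlier results of these data known. List entries Taf1a and Aar2 matched no row. Some genes enter the counts and medians but are not reported here by name.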

Additional observations from a re-analysis of the deposited data

How the results depend on the processing

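Over the alternatives, 1885 of the values of single genes stayed on the same side of the threshold and in the same direction, 103 passed it newly, 52 no longer passed it and 0 changed sign. The shares in brackets are those of all genes that fell under the same setting. In the UTX knockout against wild type the count of 3 changed members became 6 with the replicate block and the length trend removed together (16%). The count was 0 in lane 2 alone (0.372%) and 0 outside chromosomes 4 and 8 (an alternative chosen after seeing the data). With single libraries left out it was 0 to 4 (3.34% to 10.3%). The members' median in this comparison turned to 0.033 in lane 2 alone and to 0.066 without wild type replicate 2, and lay between -0.27 and 0.07 with single libraries left out. In the labelled MLL4 knockdown against wild type the count of 11 became 19 with DESeq2 (16.6%), 35 with the replicate block (19.5%) and 7 with the length trend removed (17.1%). It was 21 with the block and the length trend removed (20 falls and a rise of Rpl15, with 21.3% of all genes falling). With only these groups it was 6 (13.9%), in lane 2 alone 3 (6.19%), and with single libraries left out 3 to 52 (9.77% to 16%). Between the perturbed groups the count of 3 became 6 with DESeq2 (16.9%), 14 with the replicate block (19.7%) and 17 with the block and the length trend removed (22.4%). It was 32 with only these groups (21.8%), 0 in lane 2 alone (6.16%), and 0 to 22 with single libraries left out (10.3% to 18.8%). The members' median there was -0.17 with the length trend removed, with or without the block. The block left the count of 3 in the UTX knockout against wild type as it was. Its counts for several other gene lists, but not for all, stand beside them. The cause of these shifts was not tested, except that lane 2 alone and single libraries left out hold fewer samples. Lane 1 holds 1 library per group, so no test was possible within it. Scalings and filters on low counts left all 3 counts within 1.5 times. Counting error weighs most on the members with the fewest counts, Rpl10l and Rpl23a.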
